A study of Mus musculus with 2 samples.

Results

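The genes described here are *Mef2a*, *Mef2c* and *Mef2d*, which encode MEF2 transcription factors. Tags of the RNA-binding protein Mbnl2 were counted over them on the gene's strand in mouse quadriceps muscle. The members were chosen by family, and make up 3 of the 22238 protein-coding genes of the mm9 GENCODE annotation. Each reached 20 tags over both genotypes, as did 3880 protein-coding genes in all. The fourth family member, *Mef2b*, had 0 tags in WT and 1 in *Mbnl1* KO muscle and is not followed further.

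The study used HITS-CLIP, in which UV light links RNA to bound protein in frozen tissue, RNase A trims the RNA, and the pieces pulled down with the protein are sequenced as tags. The 2 groups were WT mice and *Mbnl1* KO mice (genotype Mbnl1-/-), with 3 mice each, aged 15 to 16 weeks, strain C57BL/6 by the labels, and with the same Mbnl2 antibody (mAb 3B4) and a high and a low RNase A concentration in both. Each genotype was merged into 1 table, so the spread between mice is not known, no test between genotypes was possible, and every interval below covers counting error only. The knockout is not restricted to muscle fibres, and the methods name a mixed background for the compound knockouts of the study.

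MEF2 proteins bind DNA through a MADS box and a MEF2 domain, and with MyoD family factors they switch on genes of muscle differentiation, fibre type and metabolism. Class IIa histone deacetylases hold them inactive, and p38 and other kinases activate them. Their own transcripts are alternatively spliced in muscle and carry long 3'UTRs, the untranslated part after the stop codon. Mbnl2 belongs to the muscleblind-like proteins, which bind RNA at YGCY motifs, regulate splicing from introns and alternative exons, and bind 3'UTRs as well.

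The WT table held 343554 unique tags (5176203 reads) and that of *Mbnl1* KO mice held 476543 (50329234 reads). Single-base tags, whose reference sequence is at least 70% one base, made up 44.0% of WT and 17.0% of *Mbnl1* KO tags on assembled chromosomes. All 8 skeletal muscle fibre markers had tags (2585 tags per 1000000 summed in WT and 6509 in *Mbnl1* KO). The 4 heart markers summed to 6 WT and 3 *Mbnl1* KO tags, with Nppa and Myl7 at 0 in both tables. Tags over *Mbnl1* (100 WT, 452 *Mbnl1* KO) do not check the genotype, since the allele is named for exon 3 alone and its coordinates were not at hand.

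The sites below are shown because they carry the most tags of each gene. In each gene up to 5 runs of overlapping tags were taken, each with at least 5 tags over both genotypes, and the 30 nt around the highest coverage were read from mm9 on the gene's strand. Capitals mark YGCY in its DNA spelling, which is TGCT (or the variant TGCC) and also CGCT (likewise the variant CGCC). The motif was searched on the gene's strand only, and overlapping matches were each counted.
*Mef2c* site 1 (3'UTR, plus strand, chr13:83806044-83806073): TGCTtgaaTGCTggtgtctgttagaaTGCT
*Mef2c* site 2 (3'UTR, plus strand, chr13:83804372-83804401): ttacctgcatagtTGCTacatacatgtttc
*Mef2c* site 3 (3'UTR, plus strand, chr13:83803240-83803269): tgtgaaattaacaTGCTtgtgtatagcttt
*Mef2c* site 4 (3'UTR, plus strand, chr13:83803128-83803157): atgaggatctccaTGCTtTGCTaaccaaga
*Mef2c* site 5 (3'UTR, plus strand, chr13:83804944-83804973): TGCTgtcattTGCCtccgcaacaaagcgag
*Mef2d* site 1 (3'UTR, plus strand, chr3:87973680-87973709): acatcccaaaccTGCCctctTGCTactgta
*Mef2d* site 2 (3'UTR, plus strand, chr3:87972668-87972697): tcttcTGCTccatgtcctgttgatggttac
*Mef2a* site 1 (intron 2, minus strand, chr7:74484211-74484240): actggagaggtggccgagtggttaagagca

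Of these 8 sites, 7 hold the motif, and they are all 3'UTR sites. For scale, 28.0% of 855818 windows of 30 nt tiled over all 3'UTRs hold at least 1 motif and 5.13% at least 2. *Mef2c* site 1 holds 3 motifs, *Mef2c* sites 4 and 5 and *Mef2d* site 1 hold 2 each. Each of the 8 sequences occurs once in the mm9 genome, counted on both strands and without mismatches. Near copies with mismatches were not searched for, so whether a site, *Mef2a* site 1 included, lies in a repeat was not tested. A match to these letters describes the sequence and is not evidence of a bound site.

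All 3 genes carried more Mbnl2 tags in *Mbnl1* KO than in WT muscle. Together they had 92 tags in WT and 486 in *Mbnl1* KO, or 268 and 1020 per 1000000 tags of each table. The *Mbnl1* KO/WT ratio of tags per 1000000 was 3.81, with an exact Clopper-Pearson interval (95%) of 3.04 to 4.81. The ratio interval lay above 1 for 3 of 3 members, against 38.6% of the 3880 genes that reached 20 tags. A ratio of at least 2 was likewise reached by 3 of 3 members, against 41.6% of those genes. These counts are descriptions only, since *Mef2a* and *Mef2d* reached 20 tags through *Mbnl1* KO, *Mef2b* did not reach them, and *Mef2d* with its 4 WT tags could not have entered at a ratio below 2. The *Mef2c* ratio also fell below 2 with the median gene scaled to 1 (1.98) and with tags of at least 2 reads and single-base tags left out (1.80). The median ratio over all of them was 1.74 (quartiles 1.11 to 2.68), so more tags in *Mbnl1* KO is the common direction in these tables and not one particular to the family. Tag number depends on the amount of RNA as well as on its binding, and RNA was not measured in these tables. It also depends on the amount of Mbnl2 pulled down, and the paper reports more Mbnl2 protein in *Mbnl1* KO skeletal muscle. The part of each in these ratios was not tested. More cells of a type and more RNA per cell in *Mbnl1* KO cannot be told apart either.

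*Mef2c* (ENSMUSG00000005583.8, chr13:83643033-83806684, plus strand) is the member with by far the most tags. It is the MEF2 gene needed for sarcomere organisation in skeletal muscle and for heart development. WT muscle had 80 tags (233 per 1000000, interval 185 to 290) and *Mbnl1* KO muscle 384 (806, interval 727 to 891), and the ratio was 3.46 (2.71 to 4.46). By tags it ranked 14 of 3880 genes, and by ratio 536, with 13.8% of genes higher. Its 3'UTR, which held most of its tags, ranked 310 by ratio among the 859 3'UTRs with at least 20 tags. Among the 92 genes with at least 200 tags, where counting error is least, the median ratio was 2.44 and *Mef2c* ranked 21.

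*Mef2d* (ENSMUSG00000001419.10, chr3:87946294-87976008, plus strand) had the highest ratio of the family. One muscle-specific splice form of this gene is known to escape kinase control and to activate late differentiation genes. WT muscle had 4 tags (11.6 per 1000000, interval 3.17 to 29.8) and *Mbnl1* KO muscle 55 (115, interval 86.9 to 150.2), a ratio of 9.91 (3.66 to 37.7). By ratio it ranked 44 of 3880, with 1.11% of genes higher, a place that rests on 4 WT tags.

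*Mef2a* (ENSMUSG00000030557.9, chr7:74376049-74517744, minus strand), the member most tied to mitochondrial and costamere genes in heart and muscle, had 8 WT tags (23.3 per 1000000, interval 10.1 to 45.9) and 47 *Mbnl1* KO tags (98.6, interval 72.5 to 131). Its ratio was 4.24 (1.98 to 10.4), rank 336 of 3880. The order of the ratios from *Mef2d* over *Mef2a* to *Mef2c* is not resolved, since each interval overlaps the other two. Counting only tags of at least 2 reads, the *Mef2a* interval reached below 1 (2.80, 0.987 to 10.9) while those of *Mef2c* (2.14, 1.57 to 2.97) and *Mef2d* (4.73, 1.50 to 23.9) stayed above it.

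**Figure D1:**
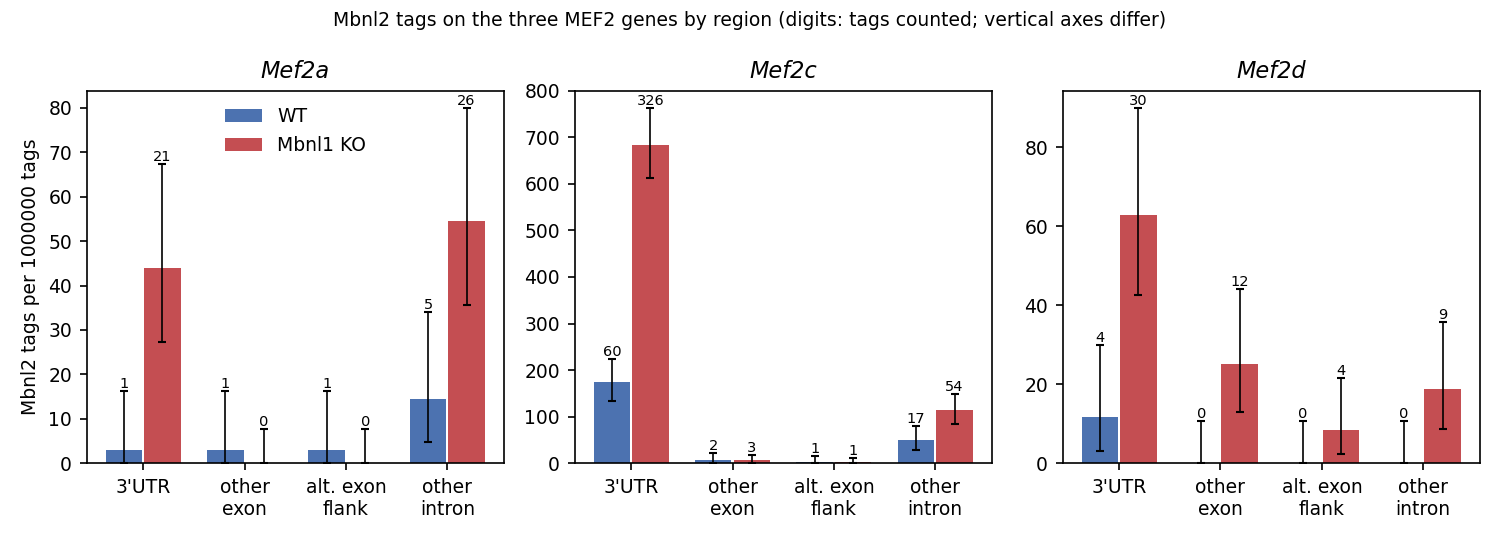
Mbnl2 tags per 1000000 tags (vertical axis, different for each gene) in 4 exclusive regions of *Mef2a*, *Mef2c* and *Mef2d*, in WT (blue) and *Mbnl1* KO (red), with exact Poisson intervals (95%) as bars and the tags counted as digits. The 3'UTR of *Mef2c* stands out with 60 WT and 326 *Mbnl1* KO tags, and *Mef2d* had 0 WT tags outside its 3'UTR.

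Regions were made exclusive in the order 3'UTR, other exon, flank of an alternative exon (500 nt of intron on each side) and other intron. Summed over the 3 genes, 3'UTRs held 65 tags in WT and 377 in *Mbnl1* KO, for a ratio of 4.18 (3.21 to 5.53). The 3'UTR interval lay above 1 in all 3 members, but so it did in 77.9% of the 859 3'UTRs with at least 20 tags, where the median ratio was 3.29 (quartiles 2.45 to 4.57). The *Mef2a* and *Mef2d* 3'UTRs reached 20 tags through *Mbnl1* KO, and with 1 WT tag the *Mef2a* 3'UTR could enter only with an interval above 1, so its call was fixed by the filter. Introns held 24 in WT and 94 in *Mbnl1* KO, for a ratio of 2.82 (1.79 to 4.62). Over all genes the introns of 19.6% of 2471 genes with at least 20 intron tags had an interval above 1, with a median of 1.30. *Mef2a* and *Mef2c* reached 20 intron tags, and both had an interval above 1, but with its 6 WT tags *Mef2a* could enter only at a ratio above 1, so nothing is read from this count.

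The *Mef2c* 3'UTR was the main place of binding in both genotypes. It spans 5020 nt, of which 4448 nt follow the last stop codon and 572 nt belong to an earlier alternative end. It held 60 tags in WT (175 per 1000000) and 326 in *Mbnl1* KO (684 per 1000000), with a ratio of 3.92 (2.97 to 5.25). Of the gene's tags, 75.0% (interval 64.1 to 84.0) in WT and 84.9% (80.9 to 88.3) in *Mbnl1* KO lay there, and these intervals overlap. Over all genes with at least 20 tags the summed share was 17.7% in WT and 32.0% in *Mbnl1* KO. By number of tags only the *Hipk3* 3'UTR (505) held more than the 386 of *Mef2c* among the 859. Per length, *Mef2c* had 76.9 tags per kb over both genotypes and ranked 95, with a median of 18.4.

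The other 3'UTRs were sparse. In *Mef2d*, 3443 nt of the 3'UTR follow the last stop codon, and the last exon held 3 WT and 26 *Mbnl1* KO tags. *Mef2d* (3721 nt) had 4 tags in WT and 30 in *Mbnl1* KO, with a ratio of 5.41 (1.91 to 21.1), and *Mef2a* (3705 nt) had 1 and 21, a ratio of 15.1 (2.43 to 626). Both intervals reached below 1 with tags of at least 2 reads, at 2.36 (0.696 to 12.5) for *Mef2d* and 5.60 (0.861 to 236) for *Mef2a*. Per kb of 3'UTR and 1000000 tags, *Mbnl1* KO muscle had 136 tags on *Mef2c* (interval 122 to 152), 16.9 on *Mef2d* (11.4 to 24.2) and 11.9 on *Mef2a* (7.36 to 18.2). *Mef2c* was therefore above both others, while *Mef2d* and *Mef2a* did not differ beyond counting error. In WT the same levels were 34.8 (26.5 to 44.8), 3.13 (0.853 to 8.01) and 0.786 (0.0199 to 4.38), in the same order. By 3'UTR tags per kb over both genotypes, *Mef2d* (9.14) ranked 651 and *Mef2a* (5.94) ranked 761 of 859, below the median. All members thus had a 3'UTR ratio above 1, but only *Mef2c* is heavily covered. With 1 and 4 WT tags, the *Mef2a* and *Mef2d* 3'UTRs could reach the required number of tags only at a ratio above 1. Their direction is therefore a description and gives no support of its own.

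**Figure D2:**
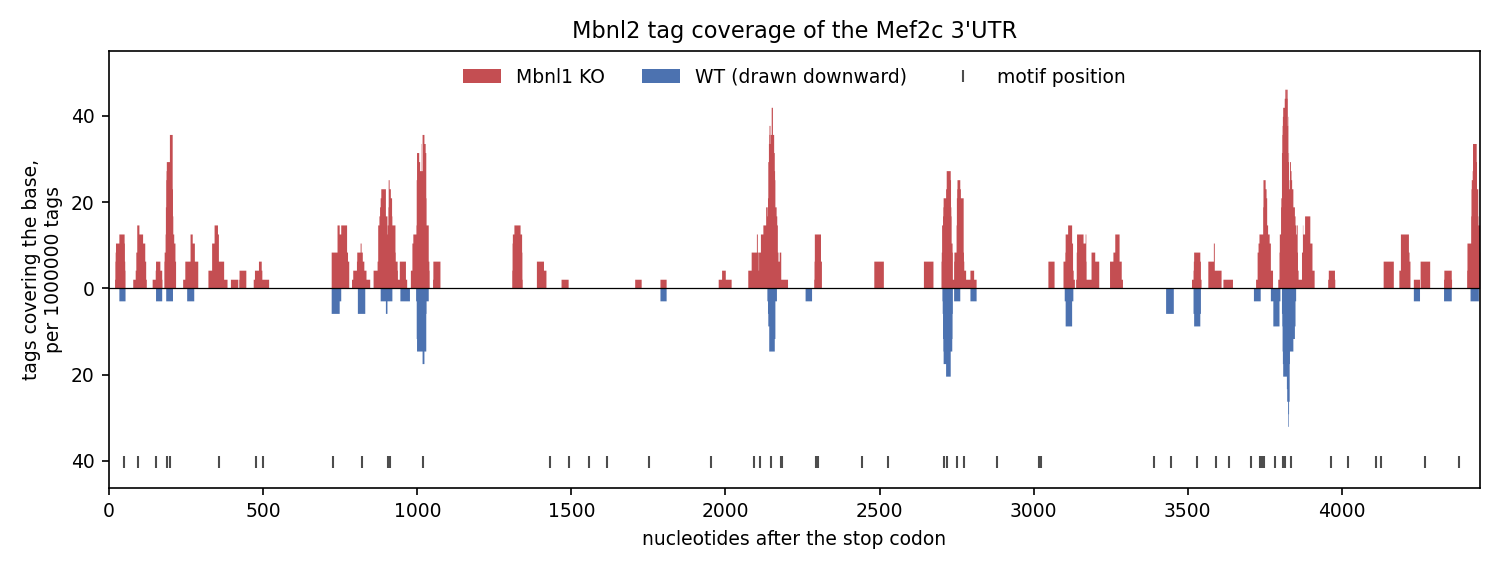
Mbnl2 tags covering each base of the *Mef2c* 3'UTR per 1000000 tags (vertical axis) against nucleotides after the stop codon (horizontal axis), *Mbnl1* KO upward in red and WT downward in blue, with ticks at the 54 motif positions. Coverage is split into narrow separate peaks, and the highest base lies at 3816 in *Mbnl1* KO (22 tags) and 3825 in WT (11 tags).

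Along the 4448 nt after the last stop codon, tags covered 14.5% of bases in WT and 41.2% in *Mbnl1* KO. Binding was not confined to 1 place, since every full kb held tags in both genotypes. The first kb had 11 WT and 99 *Mbnl1* KO tags (ratio 6.49, 3.47 to 13.4) and the second had 7 and 34 (3.50, 1.53 to 9.36). The third had 15 and 71 (3.41, 1.94 to 6.41) and the fourth 24 and 91 (2.73, 1.73 to 4.48). Ratios were thus above 1 throughout, with intervals that overlap from one kb to another. The remainder, from 4001 to 4448 nt, had 3 WT and 31 *Mbnl1* KO tags (7.45, 2.32 to 38.1). The WT tags were most numerous in the fourth kb and the *Mbnl1* KO tags in the first, where 32.0 per 1000000 in WT stood against 208 in *Mbnl1* KO.

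The tags of *Mef2c* formed 94 runs, of which 22 had at least 5 tags and together held 338 of the 464 tags. Of the 22 runs, 21 had a ratio above 1, 8 had 0 WT tags and 1 had a ratio below 1 (3 WT and 4 *Mbnl1* KO tags, 0.961, interval 0.163 to 6.56). Since 5 tags over both genotypes were required, the 8 runs without WT tags entered through *Mbnl1* KO alone and had to be higher there, so these counts describe the runs and give no support of their own. The 5 sites printed above are the runs with at least 20 tags. Site 1, 3823 nt after the stop codon and the one with 3 motifs, had 16 WT and 53 *Mbnl1* KO tags in its run (2.39, 1.34 to 4.48). It was the most heavily tagged place in both genotypes. Site 2, at 2151 nt, had 5 and 31 (4.47, 1.72 to 14.7), site 3, at 1019 nt, had 6 and 23 (2.76, 1.09 to 8.30), and site 4, at 907 nt, had 3 and 24 (5.77, 1.75 to 29.9).

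Site 5, at 2723 nt, was the only one of the 5 whose interval includes 1, though it overlaps those of sites 1 to 4. It held 7 tags in WT and 13 in *Mbnl1* KO, for a ratio of 1.34 (0.496 to 3.96), and it holds 2 motifs. Further runs were almost exclusive to *Mbnl1* KO. The run at chr13:83802414-83802451 had 1 WT and 17 *Mbnl1* KO tags (12.3, 1.92 to 512), and the run at chr13:83806642-83806686, at the annotated end of the gene, had 1 and 16 (11.5, 1.79 to 484). With 1 WT tag in each, the size of these ratios is poorly known, and both intervals overlap those of sites 1 to 4.

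The motif was more frequent around tags of the *Mef2c* 3'UTR than over its whole length. Of its 167 tiled windows of 30 nt, 27.5% hold a motif. The 30 nt around the middle of a tag held one for 48 of 60 WT tags (80.0%, interval 67.7 to 89.2) and 183 of 326 *Mbnl1* KO tags (56.1%, 50.6 to 61.6). The share was lower in *Mbnl1* KO, with intervals that do not overlap. Tags piled on 1 site are not independent, so these intervals are too narrow, and the difference was not tested. Of the 22 runs with at least 5 tags, 13 held a motif in the 30 nt around their highest coverage.

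For *Mef2d* the motif lay near 24 of 30 *Mbnl1* KO 3'UTR tags (80.0%, interval 61.4 to 92.3), against 34.1% of its windows, and near 4 of 4 WT tags. For *Mef2a* it lay near 9 of 21 *Mbnl1* KO tags (42.9%, 21.8 to 66.0), against 19.5% of its windows, and not near its 1 WT tag. In each member the share around *Mbnl1* KO tags exceeded that of its own windows. The 3'UTRs after the last stop codon hold 1.51 motifs per 100 nt in *Mef2d*, 1.21 in *Mef2c* and 0.783 in *Mef2a*, so the order of motif density is not the order of tags per kb.

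**Figure D3:**
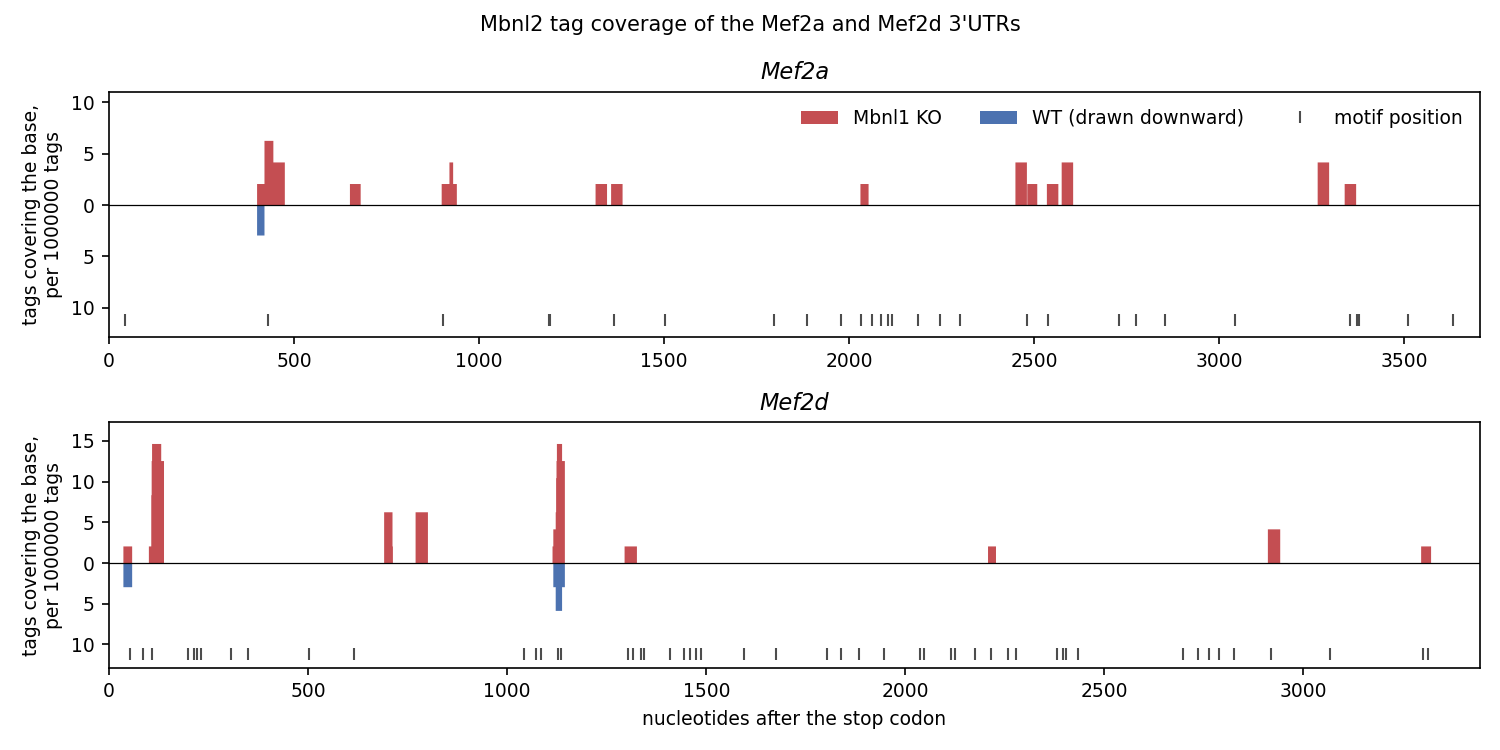
Mbnl2 tags covering each base of the *Mef2a* (top) and *Mef2d* (bottom) 3'UTR per 1000000 tags (vertical axis) against nucleotides after the stop codon (horizontal axis), *Mbnl1* KO upward in red and WT downward in blue, with ticks at motif positions. For *Mef2d* only the 3443 nt after the last stop codon are drawn. The highest *Mef2d* coverage is in 2 peaks of 7 *Mbnl1* KO tags among scattered tags, while no base of *Mef2a* had more than 3.

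The *Mef2d* tags were mostly scattered, with 16 of 59 in runs of at least 5 tags. Site 1, 1130 nt after the stop codon, had 2 WT and 7 *Mbnl1* KO tags (2.52, 0.480 to 24.9). Site 2, at 118 nt, had 0 and 7, at least 1.68-fold higher in *Mbnl1* KO when WT is set to a floor of 3 tags (8.73 per 1000000), while the exact interval of the ratio runs from 1.04 upward. A run with 0 WT tags and at least 5 in all could only be higher in *Mbnl1* KO. The gene had 25 runs in all, and these were the only 2 with at least 5 tags. *Mef2a* tags were scattered over 36 runs, of which 23 were single tags and 1 had at least 5. That run lies in intron 2, with 1 WT and 4 *Mbnl1* KO tags (2.88, 0.285 to 142), and its sequence above holds no motif.

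Outside the 3'UTR most tags of *Mef2a* and *Mef2c* lay in introns. *Mef2a* had 6 WT and 26 *Mbnl1* KO intron tags (3.12, 1.26 to 9.28), spread over intron 2 (1 and 7), intron 3 (1 and 5), intron 4 (2 and 8) and others. Introns held 55.3% of its *Mbnl1* KO tags (interval 40.1 to 69.8) and the 3'UTR 44.7% (30.2 to 59.9), which do not differ beyond counting error, and over all genes introns held 56.9%. *Mef2c* had 18 and 55 intron tags (2.20, 1.27 to 3.99), mostly in its long intron 2 (8 and 25, ratio 2.25, 0.985 to 5.78) and intron 4 (7 and 19, 1.96, 0.788 to 5.51). The intervals of both single introns include 1.

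*Mef2d* had no WT tag outside its 3'UTR. In *Mbnl1* KO it had 13 intron tags, at least 3.12-fold higher with WT set to the floor of 3 tags, and the exact interval of the ratio runs from 2.20 upward. Other exons had 12 tags, at least 2.88-fold higher by the same floor, with an exact interval that starts just above 2. The exon tags were spread over exons 5 (2), 7 (3), 8 (2), 9 (4) and 10 (1). Per kb of other exon and 1000000 tags, *Mbnl1* KO muscle had 11.1 on *Mef2d* (interval 5.75 to 19.4), 2.65 on *Mef2c* (0.546 to 7.74) and 0 on *Mef2a* (up to 2.95). Exons of *Mef2d* outside the 3'UTR thus stood above those of *Mef2a* beyond counting error, but not above those of *Mef2c*.

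The alternative exons were examined apart, because muscleblind-like proteins regulate splicing from such exons and their flanks. In MEF2 genes they include a mutually exclusive pair in the middle of the gene and a short exon near the transactivation domain. The annotation gave 10 alternative exons, of 24, 138, 132 and 29 nt in *Mef2a*, 144, 138 and 24 nt in *Mef2c* and 138, 135 and 21 nt in *Mef2d*. None of the 10, which sum to 923 nt, had a tag in either genotype. Taken as up to 3 tags, a count of 0 allows 8.73 tags per 1000000 in WT and 6.30 in *Mbnl1* KO, and the exact Poisson limits are 10.7 and 7.74. Over the 3880 genes, alternative exons had 1.13 WT and 3.09 *Mbnl1* KO tags per kb and 1000000 tags, a rate at which 923 nt would hold few tags, so depth limits this statement.

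The flanks held few tags as well. Over their 6869 nt there were 2 tags in WT and 5 in *Mbnl1* KO, with a ratio of 1.80 (0.295 to 18.9). *Mef2a* had 1 and 0, *Mef2c* 1 and 1, and *Mef2d* 0 and 4. In *Mef2d*, 3 of the 4 lay downstream of the 138 and 135 nt pair (chr3:87961956-87962093 and chr3:87962143-87962277, windows that overlap) and 1 downstream of the 21 nt exon (chr3:87965703-87965723). Per kb and 1000000 tags the flanks had 0.848 in WT and 1.53 in *Mbnl1* KO, against 0.434 and 0.973 over the flanks of all 3880 genes. No difference between genotypes was detectable there at this depth.

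**Figure D4:**
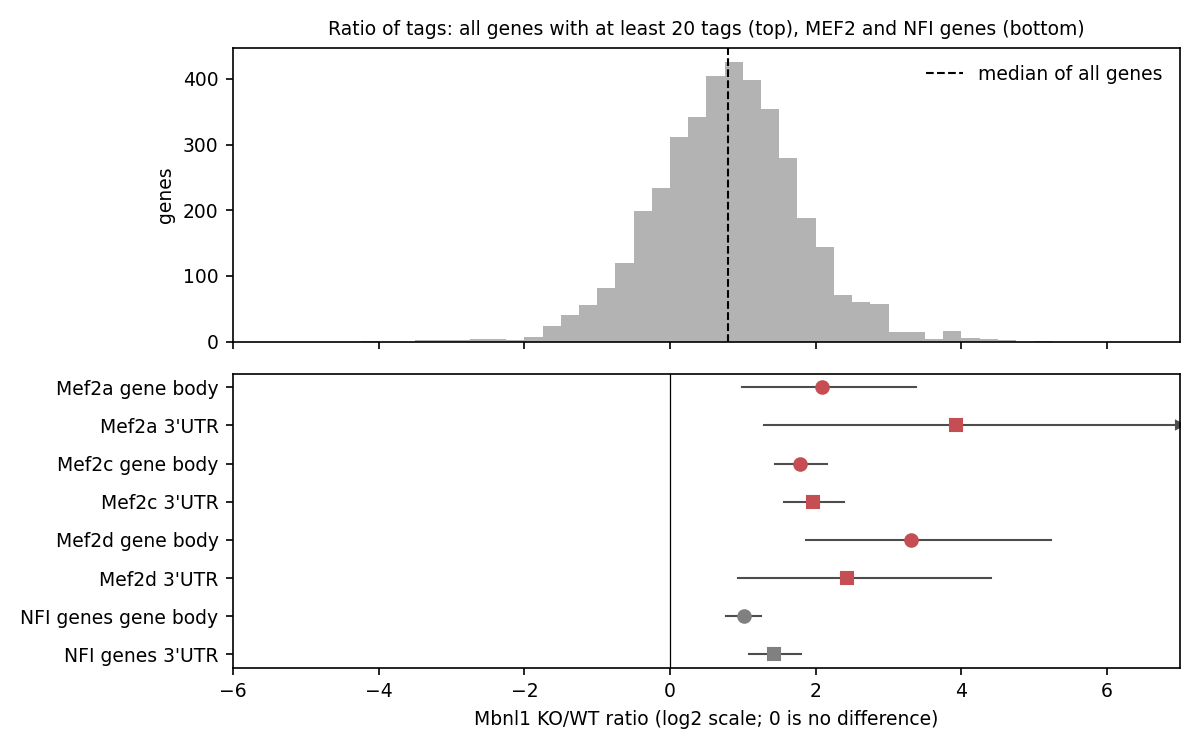
Top, number of genes that reached 20 tags (vertical axis) by *Mbnl1* KO/WT ratio of tags (horizontal axis, log2 scale), with the median of 1.74 dashed and genes with 0 tags in either genotype not drawn. Bottom, the same ratio with its interval (95%, lines) for gene bodies (circles) and 3'UTRs (squares) of the MEF2 genes in red and of the 4 NFI genes summed in grey, where every point lies to the right of the line at no difference and the arrow marks an interval that runs on to 626.

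The nuclear factor I genes *Nfia*, *Nfib*, *Nfic* and *Nfix*, a second family of transcription factors active in muscle, were counted in the same way. Summed, they held 197 tags in WT and 550 in *Mbnl1* KO, and their ratio of 2.01 (1.71 to 2.38) lies below the interval of the MEF2 genes together (3.04 to 4.81). In introns the NFI ratio was 1.45 (1.14 to 1.86) against 2.82 (1.79 to 4.62) for the MEF2 genes, with intervals that overlap slightly. For 3'UTRs the NFI ratio was 2.70 (2.12 to 3.47), and its interval overlaps that of the MEF2 genes, 3.21 to 5.53.

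The genes whose pattern was most like that of *Mef2c* were *Qk*, *Kif1b* and *Nedd4*. Likeness was the Euclidean distance over 6 values, log2(tags per 1000000 + 1) in 3'UTR, other exon and intron of both tables, so it rests on 2 merged tables. *Qk* encodes the RNA-binding protein quaking and stood at a distance of 1.83 with 41 WT and 235 *Mbnl1* KO tags. *Kif1b*, a kinesin motor, had 65 and 278 (distance 2.04) and *Nedd4*, a ubiquitin ligase, had 42 and 211 (2.20). Nearest to *Mef2a* were *Baz1b* (1.04), *Ubac1* (1.63) and *Rps6ka5* (1.63), and nearest to *Mef2d* were *Khdrbs1* (1.64), *Gys1* (1.66) and *Tram1* (1.97).

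Genes around the MEF2 proteins were counted as well. Of 20 partners and regulators, 11 had at least 20 tags, and the ratio interval lay above 1 in 6 of the 11 and below 1 in 0, against 38.6% above 1 over all genes. Of the 6, *Ep300* (7 WT tags) and *Cabin1* (5) could enter only at a ratio above 1. The median ratio of the 11 was 1.70, against 1.74. Those above were the class IIa histone deacetylase *Hdac4* (2.88), the p38 kinase activator *Map2k6* (1.70), the acetyltransferase *Ep300* (2.57), the coactivator *Ncoa2* (1.79), the calcineurin anchor *Akap6* (1.97) and the calcineurin inhibitor *Cabin1* (3.03). The intervals of *Hdac7* (1.59), *Hdac9* (0.968), the p38 kinase *Mapk14* (1.60), the deacetylase kinase *Prkd1* (1.14) and *Smad3* (1.55) included 1. The median of the partners thus stood close to that of all genes.

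Of 14 genes known as MEF2 targets in muscle, 10 had at least 20 tags, and 6 of the 10 had an interval above 1 and 0 below it, against 38.6% above 1 over all genes. Their median ratio was 2.57, against 1.74. They were the creatine kinase *Ckm* (3.20), the glucose transporter *Slc2a4* (6.85, from 2 WT tags, with which it could enter only with an interval above 1), the M-band proteins *Myom1* (2.64) and *Myom2* (2.94), the methyltransferase *Smyd1* (3.20) and the transcription factor *Jun* (2.49). The intervals of *Xirp2* (1.48), *Nr4a1* (1.30), *Des* (1.80) and *Myoz1* (1.54) included 1. *Des* (6 WT tags) and *Myoz1* (7) could enter only at a ratio above 1, so the median of the targets is a description only. Marker sets of the tissue did not all show a rise. Per 1000000 tags, the muscle fibre markers, which include the target *Ckm*, summed to 2585 in WT and 6509 in *Mbnl1* KO. Whether the MEF2 targets differ from other muscle fibre genes was not tested. The 3 fibroblast markers summed to 489 and 1431 on the same scale. The adipocyte markers summed to 2.91 and 27.3, from 1 WT and 13 *Mbnl1* KO tags. Smooth muscle (49.5 and 58.8), satellite cell (23.3 and 23.1) and Schwann cell and nerve markers (61.1 and 58.8) stood near each other. Leukocyte markers (26.2 and 16.8) rested on 9 and 8 tags, and heart markers (17.5 and 6.30) on 6 and 3. These tags are too few to show a difference. *Mef2c* is known to be expressed outside muscle fibres too, for example in endothelium, where Cdh5 had 13 and 55 tags, Pecam1 16 and 18, and Kdr 8 and 14. The part of these cell types in the *Mef2* values was not tested.

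The ratios of the 3 gene bodies kept their direction under the 11 alternatives of counting and scaling, but their size moved. Scaled so that the median gene is at 1, the 3 genes together stood at 2.18 (1.74 to 2.76) instead of 3.81. With single-base tags left out of the tables the ratio was 2.68 (2.13 to 3.40), although only 3 WT tags of *Mef2c* and 1 *Mbnl1* KO tag of *Mef2a* are of this kind. Tags of at least 2 reads gave 2.33 (1.75 to 3.15), and with both changes it was 1.95 (1.46 to 2.64). The totals of the tables change with these filters. Tags that rest on 1 read made up 79.0% in WT and 59.5% in *Mbnl1* KO. Single-base tags made up 44.0% and 17.0% of those on assembled chromosomes. Tags of at least 2 reads on the 3 genes numbered 55 in WT and 343 in *Mbnl1* KO, and scaling to the tables multiplied their raw ratio by 0.373, in place of 0.721 for all tags and 0.492 without single-base tags.

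**Figure D5:**
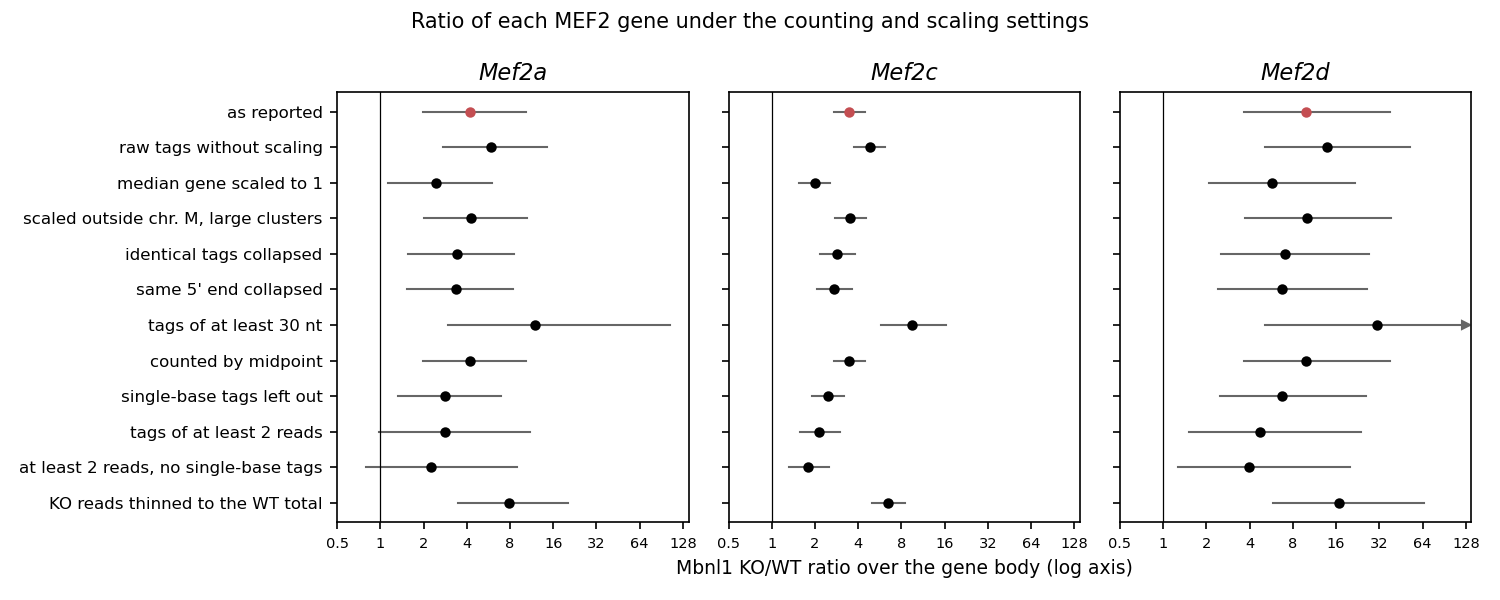
*Mbnl1* KO/WT ratio over the gene body (horizontal axis, log scale) of *Mef2a*, *Mef2c* and *Mef2d* under each counting or scaling setting (rows), with the reported value in red and intervals (95%) as lines. Every point lies above 1, from 1.80 to 30.8, and only the *Mef2a* intervals with tags of at least 2 reads reach below 1.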

How the data were processed

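HITS-CLIP tags of Mbnl2 were taken from quadriceps of 3 mice per genotype. The authors removed low quality reads, aligned the rest to mm9 using BWA (version not given in the sources used here), dropped short sequences and likely PCR duplicates, and merged the mice. For each unique tag they deposited a count, the reads it stands for, which is not normalized. The merged tables do not mark the RNase concentration of a tag.

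Unique tags overlapping a region on the gene's strand were counted (mm9 GENCODE; Python 3.11.15, numpy 2.4.6, pandas 2.3.3, scipy 1.17.1, matplotlib 3.10.9, samtools 1.23.1) and divided by the tags of the table (343554 WT, 476543 *Mbnl1* KO). Intervals are exact (Clopper-Pearson for ratios and shares, Poisson for levels) at 95%. Genes and regions needed 20 tags to enter the background. An alternative exon is an internal coding-transcript exon lying in an intron of another coding transcript. A gene with 0 WT tags was compared with a floor of 3 tags. The counting and intervals were tested on simulated data.

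Members, gene lists, markers and alternatives were chosen with earlier results of these data known. Named were the members, *Mef2b*, listed genes with at least 20 tags, up to 5 runs per member, the 3 nearest genes, and the NFI genes; *Hipk3* and runs beyond the printed sites were named after their values were seen. Alternatives were other scalings, collapsing tags, tag length, reads per tag, single-base tags, thinning of reads, flank width and 3'UTR extension. The authors' peak and splicing tables were not used here.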

Additional observations from a re-analysis of the deposited data

How the results depend on the processing

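No result reversed under the alternatives run. The ratio of the 3 genes together (3.81) was 5.28 without scaling, 2.18 with the median gene at 1, 3.00 when tags sharing a 5′ end counted once, 10.7 for tags of 30 nt or more, 2.68 with single-base tags left out, 2.33 with tags of at least 2 reads, 1.95 with both of these, and 7.03 after thinning *Mbnl1* KO to the number of WT reads. The 3'UTR ratio (4.18) was 5.80, 2.40, 13.2 (tags of at least 30 nt), 2.85 (single-base tags left out), 2.41 (at least 2 reads), 2.02 (both) and 7.92 (thinned), the first and second being without scaling and with the median gene at 1. The intron ratio (2.82) was 1.62 with the median gene at 1, 8.73 with tags of at least 30 nt, 4.72 thinned, and 1.57 with both filters, where its interval (0.834 to 3.20) included 1. The cause of these shifts was not tested.

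The number of members with an interval above 1 fell from 3 to 2, without *Mef2a*, with tags of at least 2 reads and with both filters. Flanks and alternative exons kept an interval that included 1 in 13 of 13 alternatives. With tags of at least 30 nt, that result and the *Mef2a* 3'UTR gave no finite value, since no WT tag was left. No paired analysis was possible because each genotype is 1 merged table, and for the same reason no replicate could be left out. WT depth limits *Mef2a* and *Mef2d*, with 8 and 4 tags.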

Other observations

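Tags on the opposite strand of the members were counted in the same way. *Mef2a* had 12 antisense tags in WT against 8 on its own strand (60.0% antisense, interval 36.1 to 80.9, which includes the 39.7% over all genes with at least 20 tags) and 4 against 47 in *Mbnl1* KO (7.84%, 2.18 to 18.9). *Mef2c* had 5 antisense tags in WT (5.88%, 1.94 to 13.2) and 10 in *Mbnl1* KO (2.54%, 1.22 to 4.62). *Mef2d* had 1 against 4 on its own strand in WT (interval of the share 0.505 to 71.6%) and 2 in *Mbnl1* KO (3.51%, 0.428 to 12.1). Both shares of *Mef2c*, and the *Mbnl1* KO shares of *Mef2a* and *Mef2d*, lie below those over all genes, 39.7% in WT and 22.6% in *Mbnl1* KO. In the 2000 nt after the annotated end there were 0 WT and 3 *Mbnl1* KO tags at *Mef2c*, 0 and 1 at *Mef2d*, and none at *Mef2a*. The *Mbnl1* KO tags of *Mef2c* began at 223 different positions and its WT tags at 65.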
